A study of Mus musculus with 8 samples.

Results

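The genes described here are 48 genes of the cell cycle and of DNA replication, out of 63329 gene names that the arrays of the series carry. They were taken by gene name, or by accession where the name on the array was an old one (Orc1 and Cdk1), and were grouped by role: 2 proliferation markers, 8 cyclins, 4 cyclin-dependent kinases (CDKs), 3 CDK inhibitors, 6 E2F and pocket proteins, 11 genes of origin licensing, 4 genes of the sliding clamp and of nucleotide supply, and 10 genes of mitosis. All 48 had probes on both array designs, 73 probes on the first and 68 on the second. For 29 members a probe of identical sequence was present on both designs.

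The study asked how bone marrow (BM) progenitor cells change when they give rise to hepatocytes in an injured liver. Lin- BM cells, depleted of mature blood cells by magnetic beads against lineage antigens that include CD5, CD11b, CD45R, 7-4, Gr-1 and Ter119, came from female C57Bl6/J mice of 6 to 8 weeks that express enhanced GFP (eGFP) from the ubiquitin C promoter. They were transplanted into male hemophilia A mice of 6 to 8 weeks (which lack functional factor VIII) given acetaminophen, and BM-derived hepatocytes were sorted by eGFP from the perfused livers 1 month and 5 months later. Primary hepatocytes were the reference, and the strain of their donors is not given in the sources used here. Each group had 2 arrays: L3 and L4 for Lin- BM cells, B1 and B2 for 1 month, H2 and H4 for primary hepatocytes, G1 and G3 for 5 months. By the study's description the cells of several mice were pooled for an array, so the p-values measure the spread between pools. The sort selects cells that carry donor eGFP. It does not separate hepatocytes from other donor cells by itself, and a donor cell fused with a recipient cell would also carry eGFP. By the study's methods, hepatocytes were first spun apart from non-parenchymal cells, and sorted cells were checked by albumin staining. The study also scored fused cells with probes for the X and Y chromosomes.

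A cell that commits to division raises D-type cyclins, which with Cdk4 and Cdk6 release E2F factors from the pocket proteins Rb1 and Rbl1. E2F factors then switch on the genes that license origins (the Mcm helicase subunits, Cdc6, Cdt1, Orc1) and supply nucleotides, and later in the cycle Foxm1 and others switch on the genes of mitosis. Blood progenitors of the marrow divide often, while hepatocytes of an adult liver mostly rest and enter the cycle after injury.

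The arrays L3, L4, B1 and B2 shared a slide of the first design, H2, H4, G1 and G3 one of the second, and slide, design and scan coincide. Across slides, group and slide cannot be told apart, and such comparisons used shared probes only. Well above background were 47.7% to 58.6% of an array's spots. Saturation was not seen. The 75th percentile of the signal, which was set to 0 on the log2 scale of each array, was 75.5 and 89.3 intensity units at 1 month and 123 to 193 elsewhere, so dim signals were closest to background at 1 month. Of the hepatocyte genes 7 of 7 on the first design and 8 of 8 on the second were above background on each hepatocyte array, and Alb, Apoa1, Cyp2e1, Cps1 and Ttr were above it on neither Lin- array. Hnf4a was above background on both Lin- arrays (-2.84 and -3.75) and Tdo2 on L4, at low levels. All 6 erythroid markers measured were above background on both Lin- arrays, although the beads removed Ter119+ cells.

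The promoters of 4 members are shown. Ccnb1 and Mki67 had the largest fitted falls at 1 month among the members in the promoter table, although that of Ccnb1 has only a lower limit. Bub1 was the uncalled member of largest positive change at 1 month. Mcm6, chosen after its values were seen, had the largest change between primary and 5 months hepatocytes, which was not called within the slide. Each promoter is the 250 bases before a transcript start, read 5′ to 3′ from RefSeq on GRCm38.p6. The annotated Mki67 gene reaches chr7:135716450, so the last part of its stretch lies inside the gene. Capitals mark matches, on either strand, to E2F sites (TTCCCGC or TTGGCGC), to cell cycle homology regions (CHR, TTTGAA or TTCGAA) and to the NF-Y box CCAAT. Matches can overlap, as the E2F and CCAAT letters do in Ccnb1.
Ccnb1 (chr13:100786487-100786736, strand -): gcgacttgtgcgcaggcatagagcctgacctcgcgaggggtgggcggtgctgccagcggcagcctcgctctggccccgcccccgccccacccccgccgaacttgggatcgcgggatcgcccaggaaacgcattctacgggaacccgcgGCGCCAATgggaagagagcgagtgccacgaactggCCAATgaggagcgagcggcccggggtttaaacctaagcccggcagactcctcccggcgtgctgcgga
Mki67 (chr7:135716380-135716629, strand -): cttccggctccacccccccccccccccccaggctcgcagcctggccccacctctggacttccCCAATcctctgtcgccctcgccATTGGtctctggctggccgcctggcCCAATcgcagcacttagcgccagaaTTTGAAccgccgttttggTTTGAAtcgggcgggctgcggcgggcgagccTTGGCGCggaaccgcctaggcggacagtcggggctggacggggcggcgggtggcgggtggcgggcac
Bub1 (chr2:127831860-127832109, strand -): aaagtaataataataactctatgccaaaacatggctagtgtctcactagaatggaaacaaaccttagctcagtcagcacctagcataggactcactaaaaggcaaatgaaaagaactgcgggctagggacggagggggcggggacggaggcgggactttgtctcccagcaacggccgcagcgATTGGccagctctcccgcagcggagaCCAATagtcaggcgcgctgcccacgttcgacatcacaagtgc
Mcm6 (chr1:128359706-128359955, strand -): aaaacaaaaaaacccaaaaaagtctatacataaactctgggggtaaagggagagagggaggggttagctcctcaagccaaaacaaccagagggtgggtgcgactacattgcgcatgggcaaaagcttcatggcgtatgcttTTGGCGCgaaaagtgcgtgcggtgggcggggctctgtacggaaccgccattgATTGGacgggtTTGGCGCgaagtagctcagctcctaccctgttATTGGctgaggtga

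The promoter table held 43 promoters of 38 members. An E2F site as spelled here was found in 12 of the 43 (27.9%), against 5.62% of 32851 mouse promoters of the same length. By role, E2F letters stood in 5 of 10 licensing promoters and in 0 of 8 mitosis promoters. A CHR was found in 11 of 43 (25.6%, against 17.1% of all promoters) and in both promoters of the proliferation markers, Mki67 and Top2a. The CCAAT box stood in 28 of 43 (65.1%, against 33.9%), with 8 of 10 licensing and 6 of 8 mitosis promoters. Mcm6 had 2 E2F matches and 2 CCAAT boxes, Mki67 had 1 E2F match, 2 CHR and 3 CCAAT boxes, and Bub1 had 2 CCAAT boxes and no E2F or CHR letters. These are matches of letters, and nothing in the arrays measured binding.

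Lin- BM cells were compared with 1 month hepatocytes to learn how far the division program of the marrow cells was still present after the change of organ. Most of it was lower. Of the 48 members, 43 were called lower at 1 month (limma, with an adjusted p below 0.05 and a change of over 0.6 in log2) and 0 higher, whereas over all 28535 genes tested 26.5% were called lower and 28.8% higher. The median log2 change of the members was -4.16, against 0.065 for all genes. Levels below are log2 signals relative to the 75th percentile of the array and changes are differences of log2 levels. In bulk samples fewer cells of a type and less RNA per cell cannot be told apart.

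All 48 members were above background on both Lin- arrays, and at 1 month 33 were above it on both arrays, 4 on 1 array and 11 on neither (Top2a, Ccnb1, Ccne2, Cdk1, Cdk2, E2f4, Cdc6, Orc1, Aurkb, Bub1b, Kif11). The 15 members not measured on both 1 month arrays passed the filter on dim probes through the Lin- arrays. Apart from Cdk2 they had to be lower, and all 15 are among the 43. Of the 33 members measured on every array of the slide, 28 were called lower. For the 11 dim members other than Cdk2 the fall has only a lower limit. It was taken as the Lin- mean over the mean of the lowest signal well above background on each 1 month array. The probe's own signal was used where that was higher. Cdk2 has no limit, since its Lin- mean (-4.20) lay below that lowest signal on B1 (-3.64) and B2 (-3.41). With the dim members at their limits and Cdk2 set to no change, the median change was -4.04.

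**Figure D1:**
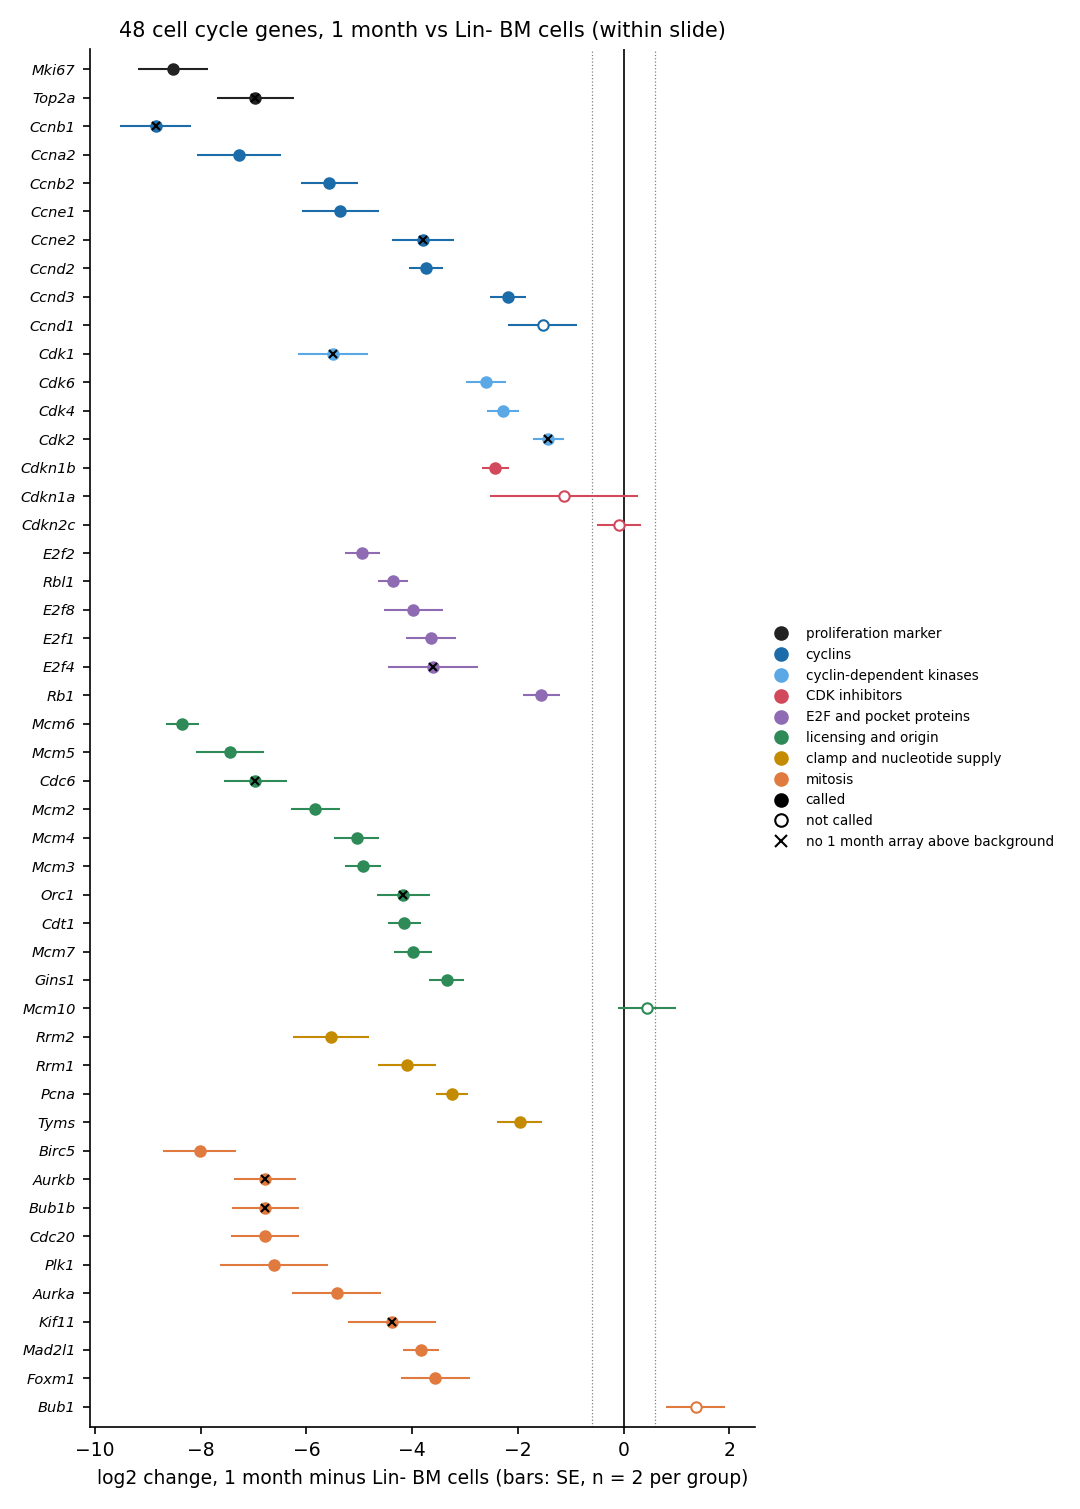
Log2 change of each of the 48 members between 1 month hepatocytes and Lin- BM cells within their slide (x axis, bars are the SE, 2 arrays per group), with members on the y axis grouped by role and dotted lines at 0.6 on either side of 0. Filled points are the 43 called lower, open points the 5 not called (Ccnd1, Cdkn1a, Cdkn2c, Mcm10, Bub1), and crosses the 11 members above background on neither 1 month array.

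Both proliferation markers fell. Mki67, which encodes the Ki-67 antigen of cycling cells, had levels of 5.26 and 6.98 in Lin- BM cells and -2.85 and -1.96 at 1 month, a change of -8.52 (SE 0.668, n = 2, adjusted p = 0.000925). By its second, dimmer probe, above background on neither 1 month array, it was at least 96.2-fold lower. Top2a, the topoisomerase that untangles replicated chromosomes, was at 0.37 and 2.52 in Lin- BM cells and at -5.46 and -5.59 at 1 month, where it was not well above background, so it was at least 31.2-fold lower (adjusted p = 0.00202).

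Of the 8 cyclins, 7 fell, with a median change of -4.57. Ccnb1, the cyclin B that drives entry into mitosis, was at 2.84 and 4.49 in Lin- BM cells and at -4.69 and -5.69 at 1 month, not well above background, at least 145-fold lower (adjusted p = 0.000835). None of its 5 probes was above background at 1 month, and their lower limits ran from 16.8-fold to 145-fold. Ccna2, cyclin A of S phase and G2, went from 3.20 and 5.49 to -3.25 and -2.61, with 1 of the 1 month arrays above background (change -7.27, SE 0.798, adjusted p = 0.00229). Ccnb2 fell by 5.57, Ccne1 by 5.36, and Ccne2 was at least 6.41-fold lower.

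The D-type cyclins, which link the cycle to growth signals, were all well above background on both 1 month arrays. Ccnd2 was at 5.52 and 5.69 in Lin- BM cells and at 1.58 and 2.16 at 1 month, a change of -3.74 (SE 0.317, adjusted p = 0.00116). Ccnd3 was at 4.08 and 4.52 against 2.42 and 1.82, a change of -2.18 (SE 0.346, adjusted p = 0.00649). For both the groups did not overlap. Ccnd1 was at 2.20 and 2.79 in Lin- BM cells and at 0.07 and 1.86 at 1 month. The groups of Ccnd1 did not overlap either, but the 1 month arrays lay 1.79 apart and the change of -1.53 was not called (SE 0.652, adjusted p = 0.103). Without B2 it was called, at -2.42 (adjusted p = 0.0264).

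All 4 CDKs were called lower, with a median of -2.45. Cdk1, the mitotic kinase that pairs with cyclins A and B, was at least 18.5-fold lower. Cdk4 (-2.29) and Cdk6 (-2.60), both kinases of D-type cyclins, were measured on every array. Cdk2, the partner of cyclins E and A, was barely above background in Lin- BM cells (-4.42 and -3.99) and not above it at 1 month (-5.57 and -5.68), which allows no fold. Its fitted change of -1.42 turned to 0.52 with another background correction, and its call was lost without B1 (adjusted p = 0.0562) or without B2 (0.069).

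Of the 3 CDK inhibitors 1 was called lower, against 26.5% of all genes. Cdkn1b, which encodes p27, was at 1.49 and 1.27 in Lin- BM cells and at -1.07 and -1.02 at 1 month, and fell by 2.42 (SE 0.262, adjusted p = 0.0022). Cdkn2c, which encodes the Cdk4 and Cdk6 inhibitor p18, was at 3.06 and 4.12 against 3.54 and 3.46, so that the groups overlapped (change -0.09, SE 0.421, adjusted p = 0.868, and 0.44 without L4). Cdkn1a, which encodes the p53 target p21, was at 0.62 and -0.20 in Lin- BM cells, and the 1 month arrays disagreed, at 1.21 on B1 and -3.04 on B2. Its change of -1.13 (SE 1.40, adjusted p = 0.521) was -3.25 and called without B1 (adjusted p = 0.0189) and 1.00 and uncalled without B2 (adjusted p = 0.191).

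All 6 E2F and pocket protein genes were called lower, with a median of -3.81. The activators E2f1 (-3.64) and E2f2 (-4.94) fell, as did the repressor E2f8 (-3.98). Rbl1, which encodes the pocket protein p107, fell by 4.36, from levels of 3.54 and 3.73 to -0.57 and -0.88. Rb1, the retinoblastoma protein gene, fell by 1.56 (SE 0.35, adjusted p = 0.0177), a call that was lost without L4 (0.0645) or B1 (0.0847). E2f4, a repressor that pairs with pocket proteins in resting cells, was above background on neither 1 month array, and its call was lost without L3 (0.0516) or L4 (0.0992).

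Of the 11 licensing genes 10 fell, with a median of -4.93 as fitted and of -4.82 with Cdc6 and Orc1 at their limits. The Mcm2 to Mcm7 subunits, which together form the ring helicase loaded at origins, all fell, with changes between -3.99 (Mcm7) and -8.34 (Mcm6). Mcm6 was at 7.74 and 8.09 in Lin- BM cells and at -0.66 and -0.19 at 1 month, with an SE of 0.313 and an adjusted p of 0.000138. Mcm5 was at 4.49 and 5.58 against -3.17 and -1.67, with 1 of the 1 month arrays above background (change -7.45, SE 0.643, adjusted p = 0.00121). Cdc6, which loads the helicase, was at 0.45 and 2.15 against -5.59 and -5.74, not above background at 1 month and at least 28.3-fold lower (adjusted p = 0.00119). Cdt1, the other loader, fell by 4.15, Gins1 by 3.35, and Orc1 was at least 7.54-fold lower. Mcm10, which acts when the helicase is fired and is not part of the ring, was the exception. Its level was 3.47 and 4.92 in Lin- BM cells and 4.42 and 4.87 at 1 month, so that the groups overlapped (change 0.45, SE 0.546, adjusted p = 0.512, and -0.28 without L3).

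The 4 genes of the clamp and of nucleotide supply were all called lower, with a median of -3.67. Pcna, the sliding clamp of the replicative polymerases, went from 6.98 and 7.53 to 3.95 and 4.06. The ribonucleotide reductase subunits differed in size, with a change of -5.54 for Rrm2, the subunit made in S phase, and of -4.09 for Rrm1. Tyms, thymidylate synthase, fell least of the 4, by 1.96 (adjusted p = 0.0153), and was above background on every array. Its call was lost without B1 (0.0674) or B2 (0.0688).

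Of the 10 mitosis genes 9 fell, with a median of -6.02 as fitted and of -4.75 with Aurkb, Bub1b and Kif11 at their limits. Birc5, which encodes survivin of the chromosomal passenger complex, was at 5.28 and 7.15 in Lin- BM cells and at -2.15 and -1.46 at 1 month (change -8.02, SE 0.684, adjusted p = 0.00117). Cdc20, the activator of the anaphase-promoting complex, fell by 6.77, and the mitotic kinases Plk1 (-6.61) and Aurka (-5.43) fell as well. Aurkb was at least 27.5-fold lower, the checkpoint kinase gene Bub1b at least 26.3-fold and the spindle motor gene Kif11 at least 7.35-fold, a call lost without B1 (adjusted p = 0.0574). Mad2l1, of the spindle checkpoint, fell by 3.83, and the transcription factor gene Foxm1 by 3.56.

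Bub1, a kinase gene of the spindle checkpoint, was the one member whose measured probes disagreed in direction, among 16 members with several. The brighter probe on average was at -0.69 and -0.49 in Lin- BM cells and at -0.0001 and 1.55 at 1 month, a change of 1.37 that was not called (SE 0.557, adjusted p = 0.092) but was called without B1 (2.14, adjusted p = 0.0227). The other probe was at 0.91 and 2.64 in Lin- BM cells and at -5.38 and -4.77 at 1 month, where it was not above background, so by this probe Bub1 was at least 39.3-fold lower. With the mean of both probes the change was -2.74. The second probe is the one shared by both designs, and it is the probe behind the values of Bub1 across slides.

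Other genes of the same machinery moved the same way, beside 26.5% of all genes called lower and 28.8% called higher. Above background on both 1 month arrays were 29 of 36 further replication genes, 12 of 31 mitosis genes, 19 of 26 regulators and 14 of 16 p53 targets. The rest passed the filter through the Lin- arrays, which favoured a fall, and the medians include their fitted values. Of 36 further replication genes 31 were called lower and 0 higher, with a median of -3.31. Uhrf1, which couples replication to DNA methylation, fell by 8.97, with 1 of the 1 month arrays above background. Chaf1a (at least 81.1-fold), Pole2 (at least 25.4-fold) and Cdc7 (at least 20.4-fold) were above background on neither, so their falls cannot be ranked. Of 31 further mitosis genes tested 29 were called lower and 0 higher, with a median of -4.92. Cenpe fell by 7.59, with 1 of the 1 month arrays above background, and Ncapg (at least 140-fold), Cenpf (at least 101-fold) and Nusap1 (at least 73.3-fold) have only lower limits. Among 26 further regulators 14 were called lower and 1 higher, with a median of -1.79. Chek1 and Cdc25a were at least 26.8-fold and 12.0-fold lower, Cdc25b fell by 5.12, and Ccng1 rose by 0.92. Of 16 p53 targets 2 were called lower and 3 higher, with a median of 0.13. Perp rose by 5.95 and Fas by 2.76, while Pmaip1 fell by 5.50 and Phlda3 by 3.59.

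Most markers of blood cells were lower at 1 month too. The summed linear level of 7 leukocyte markers was 398 and 274 on the Lin- arrays and 1.37 and 3.99 on the 1 month arrays, and that of 7 neutrophil precursor markers was 612 and 486 against 1.32 and 1.51. The 6 erythroid markers summed to 224 and 277 against 30.3 and 46.2, with Hba-a1 lower at 1 month (7.56 and 7.57 against 1.53 and 0.31) and Alas2 higher (3.28 and 3.31 against 4.66 and 5.40). Spn and Vav1 were above background on neither 1 month array. The part of the blood cell markers in the fall of the members was not tested.

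On shared probes all 3 hepatocyte groups could be set beside Lin- BM cells, with 28 members that passed the filter and 1 estimate of the spread for the 4 groups. The same 27 members were called lower at 1 month, at 5 months and in primary hepatocytes, and in each comparison the member not called was Cdkn1a. Over all 9231 genes tested, 31.8% were called lower at 1 month, 37.8% at 5 months and 38% in primary hepatocytes. The 3 comparisons share the Lin- arrays, and the last 2 cross slides. Cdc6, Orc1, Bub1, Bub1b and Kif11 were above background on both arrays of no hepatocyte group. They passed the filter through the Lin- arrays and had to be lower. The median change was -4.97 at 1 month, -5.44 at 5 months and -6.01 in primary hepatocytes. These medians include fitted values of members not above background, so they do not rank the hepatocyte groups. Among called members above background on at least 1 array of the hepatocyte group, the change ran from -8.50 (Mki67) to -1.40 (Ccnd3) at 1 month, from -7.51 (Mki67) to -2.11 (Ccnd3) at 5 months and from -8.97 (Mcm6) to -1.97 (Ccnd3) in primary hepatocytes.

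**Figure D2:**
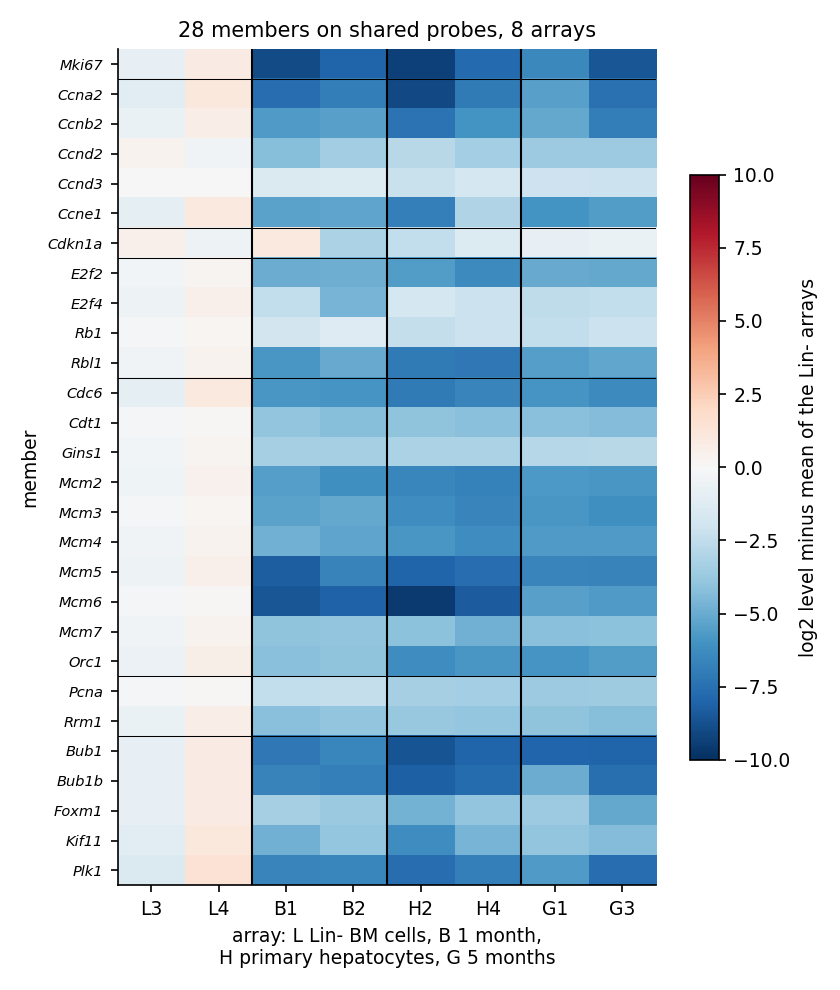
Log2 level of 28 members on shared probes (rows, by role) on the 8 arrays (columns, 4 groups of 2) minus the mean of the Lin- arrays, from blue (lower) to red (higher). The 6 hepatocyte arrays are below the Lin- mean for every member but Cdkn1a, which is above it on B1, and Mcm6 is less blue on G1 and G3 than on the other 4 hepatocyte arrays.

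On this shared scale, which lies lower than the scale of all probes, Mki67 was at 3.89 and 5.46 in Lin- BM cells, -4.30 and -3.35 at 1 month, -4.63 and -3.08 in primary hepatocytes and -1.76 and -3.92 at 5 months. The 3 hepatocyte groups overlapped and lay more than 5 units below the Lin- arrays. Plk1 was likewise low in all hepatocytes, with 0.99 and 3.92 in Lin- BM cells and between -5.16 and -3.22 on the 6 hepatocyte arrays. Ccnd3 showed the smallest fall of the 27 at 1 month (-1.40, SE 0.236, adjusted p = 0.00228), with levels of 5.50 and 5.63 in Lin- BM cells and 3.37 to 4.21 on the hepatocyte arrays. Cdkn1a was at -0.75 and -1.72 in Lin- BM cells, -0.24 and -4.43 at 1 month, -3.67 and -2.61 in primary hepatocytes and -2.02 and -1.89 at 5 months. The SE of Cdkn1a, 1.24, was the largest of the 28.

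On their shared probes Cdc6, Orc1, Bub1 and Kif11 were above background on none of the 6 hepatocyte arrays. Against Lin- BM cells, Bub1 was at least 69.6-fold lower at 1 month, at least 63.7-fold at 5 months and at least 79.0-fold in primary hepatocytes. Cdc6 was at least 25.6-fold, 23.4-fold and 29.1-fold lower in the same order. For these 4 genes the hepatocyte groups cannot be ranked. The call of E2f4 was lost in primary hepatocytes without L3, L4, H2, H4, G1 or G3 (adjusted p from 0.0582 to 0.197) and at 5 months without L4, G1 or G3 (0.0708 to 0.101).

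The second question was whether 5 months hepatocytes differ from primary hepatocytes, which lay on the same slide. Of the 48 members 39 passed the filter there, and 9 were above background on both arrays of neither group. By limma 0 of the 39 were called, against 0.552% of all 19933 genes, and 8 of the 39 had an unadjusted p under 0.05, against 14.1% of all genes. By the methods' t-test at an unadjusted p under 0.05, 5 members were called, against 6.84% of all genes. After Benjamini-Hochberg adjustment that test called 0 of all 19928 genes, so it could call no member. The median change was 0.27, against 0.036 for all genes, with 24 changes above 0 and 15 below. The groups did not overlap with 5 months higher for 13 members, against 25.2% of all genes, and with 5 months lower for 8, against 22.7%.

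No role held a called gene in this comparison. Of 9 licensing genes tested, 7 changes were above 0, with a median of 0.33. For 6 of the 9 both 5 months arrays lay above both primary arrays, against 25.2% of all genes. The 2 licensing genes below 0 were Mcm10 (-0.12) and Cdt1 (-0.18). The CDKs had a median of -0.49, with Cdk4 at -0.49 and Cdk2 at -0.81, for both without overlap of the groups, and Cdk6 at 0.06. Of all genes 22.7% had no overlap with 5 months lower. Rbl1 was at -3.75 and -3.86 in primary hepatocytes and -2.24 and -1.91 at 5 months, a change of 1.73 (SE 0.227, adjusted p = 0.0875). By its second probe, above background on 1 of the primary arrays, Rbl1 changed by 0.71 and the groups overlapped. The levels of that probe were -3.02 and -4.26 in primary hepatocytes and -2.77 and -3.09 at 5 months. Rrm2 (1.14), Cdkn1a (1.14), E2f2 (0.86) and E2f1 (0.84) were also higher on both 5 months arrays, with adjusted p from 0.277 to 0.374. Without H4, 6 members were called higher (Mcm6, Mcm5, Rbl1, Rrm2, Cdkn1a, E2f1), against 5.48% of all genes called higher there. Without H2, 3 were called higher, Mcm6 and Rbl1 among them, and 1 lower, against 4.72% and 2.98% of all genes. The D-type cyclins changed by -0.55 (Ccnd2), -0.18 (Ccnd3) and -0.17 (Ccnd1), Cdkn1b by 0.34 and Cdkn2c by 0.12.

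**Figure D3:**
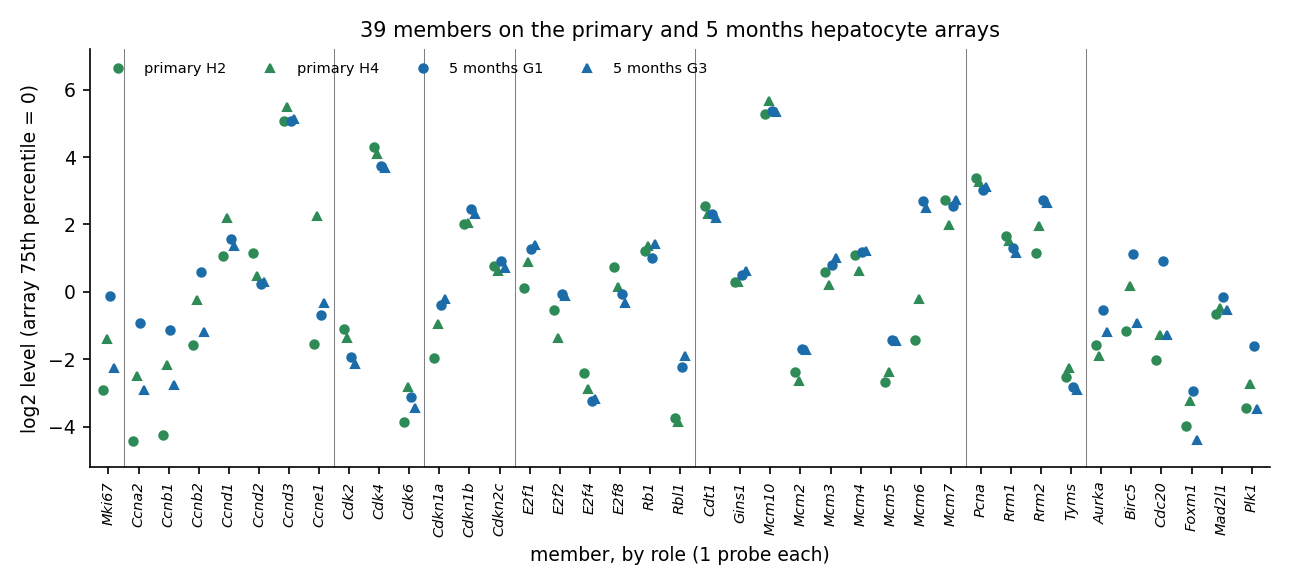
Log2 levels (y axis, 75th percentile of the array at 0) of the 39 members tested on the primary hepatocyte arrays H2 and H4 (green) and the 5 months arrays G1 and G3 (blue), with members by role on the x axis. Mcm6 and Rbl1, on the probe fitted, have the largest changes of the members whose groups do not overlap. These are 13 higher and 8 lower at 5 months, beside 25.2% and 22.7% of all genes. For Mki67, Ccna2, Ccnb1, Birc5 and Cdc20 the array G1 lies highest and G3 lies between H2 and H4.

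Mcm6 was the member that differed most. Within the slide it was at -1.42 and -0.20 in primary hepatocytes and at 2.68 and 2.48 at 5 months, a change of 3.39 (SE 0.459, adjusted p = 0.093). The fit of all 4 groups on shared probes, which estimates the spread from more arrays, gave 3.43 (SE 0.43, adjusted p = 0.0256), the one member called there, against 0.552% of all genes called higher and 0.487% lower. The call was lost without L3 or L4 (adjusted p = 0.0561 each), without B1 or B2 (0.0513 each), without G1 (0.181) and without G3 (0.162), and when the 4 other arrays were left out (0.117), with the change between 3.31 and 3.56 throughout. Within the slide the change of Mcm6 was 2.79 without H2 and 3.998 without H4. In these fits the spread of a gene rests on G1 and G3 alone and leaves out the gap of 1.21 between H2 and H4.

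The other subunits of the ring did not share the size of this difference. On shared probes Mcm6 was at 6.37 and 6.57 in Lin- BM cells, -2.11 and -1.59 at 1 month, -3.12 and -1.87 in primary hepatocytes and 1.06 and 0.81 at 5 months. Mcm2, Mcm3, Mcm4, Mcm5 and Mcm7 changed by 0.31 to 1.14 between primary and 5 months hepatocytes, by 0.38 to 1.19 between primary and 1 month hepatocytes and by -0.71 to 0.76 between 1 and 5 months. None of these 5 was called between 5 months and primary hepatocytes or between 5 months and 1 month. Mcm6 had 1 probe on each design, of the same sequence, so a second probe could not be compared. The difference between Mcm6 and the other subunits itself was not tested.

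**Figure D4:**
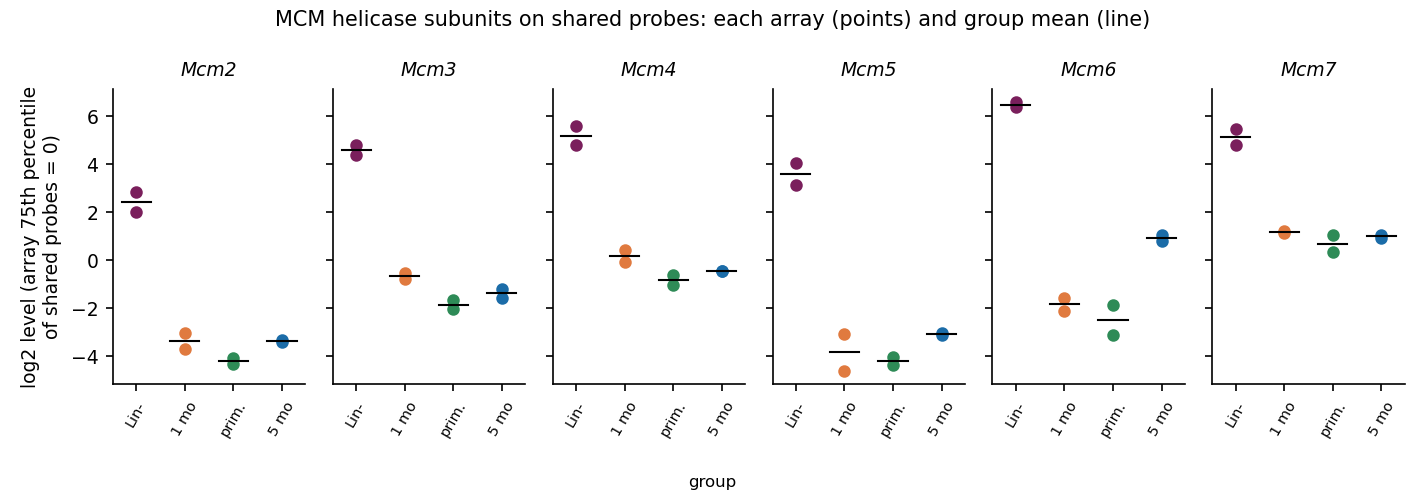
Log2 level on shared probes (y axis, 75th percentile of the shared probes of the array at 0) of Mcm2 to Mcm7 in Lin- BM cells, 1 month, primary and 5 months hepatocytes (x axis), with a point per array and a line at the mean of 2. Mcm6 at 5 months (1.06 and 0.81) lies between its levels in Lin- BM cells and in the other hepatocyte groups, while each of the other 5 subunits differs by at most 1.19 between the means of any 2 hepatocyte groups.

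Among the further lists in this comparison, 2 genes were called. Pttg1, which encodes securin, the inhibitor of separase, rose by 3.38 (SE 0.23, adjusted p = 0.0278), the one gene called of 21 mitosis genes tested, whose median was 0.53. Ccnf, an F-box cyclin, rose by 2.53 (adjusted p = 0.0356), the one called of 24 regulators, whose median was -0.14. Of 33 replication genes and 15 p53 targets tested 0 were called by limma, with 5 and 2 at an unadjusted p under 0.05. Over all genes 0.552% were called and 14.1% had an unadjusted p under 0.05, so the counts of 5 and 2 were near the share of all genes. Above that share were the mitosis genes, with 6 of 21, and the regulators, with 6 of 24. Changes above 0 numbered 18 among these mitosis genes and 10 among the regulators. Changes ran from -1.44 to 1.09 for the replication genes and from -0.32 to 1.77 for the p53 targets.

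Markers of liver macrophages moved with the comparison. The summed linear level of 7 Kupffer cell markers was 32.2 and 69.0 in primary hepatocytes and 126 and 124 at 5 months, and that of 7 leukocyte markers was 2.97 and 5.52 against 8.47 and 6.28, with all 7 of either list above background on each array. Their part in the values of Mcm6, Rbl1 and the other licensing genes was not tested.

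The 1 month hepatocytes were set beside the other hepatocyte groups across slides. Against primary hepatocytes 4 of 28 members were called higher and 0 lower, with 11.6% of all genes called higher and 5.08% lower, so the share of members was near that of all genes. Rbl1 was higher by 1.68 (SE 0.37, adjusted p = 0.0288), Mcm3 by 1.19 (SE 0.275, adjusted p = 0.0334) and Pcna by 0.96 (SE 0.216, adjusted p = 0.0303). Orc1, the fourth, was above background in neither group and has no fold. These 4 calls were lost when the 75th percentile was taken over all probes of the design, with Rbl1 at 1.41, Mcm3 at 0.92 and Pcna at 0.69. The calls of Rbl1, Mcm3 and Pcna were also lost without H2, H4, G1, G3 or B2, and those of Mcm3 and Pcna without B1 (adjusted p from 0.0568 to 0.156). Between 5 months and 1 month Mcm6 was higher at 5 months by 2.78 (SE 0.43, adjusted p = 0.0101, and 0.0755 without G1 or 0.053 without G3), against 5.81% of genes called higher, and 2 members were called lower, against 11.3%. Of these, Pcna was at 2.53 and 2.66 at 1 month and 1.38 and 1.44 at 5 months (change -1.18, adjusted p = 0.0171, and 0.0626 to 0.104 without any 1 of these 4 arrays), and Orc1 was again above background in neither group.

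The arrays of a group differed from each other by role. In Lin- BM cells 46 of 48 members were higher on L4 than on L3, by a median of 1.07, while the median over all genes was -0.03. The median gap was 1.94 for the 2 proliferation markers, 1.83 for mitosis (with Plk1 at 3.08), 1.34 for the cyclins, 1.27 for the clamp and nucleotide supply, 0.91 for licensing and -0.22 for the CDK inhibitors. Of the further mitosis genes 30 of 31 were higher on L4, by a median of 1.79. Ccnd2 and Mcm6 were nearly level between the arrays, with gaps of 0.17 and 0.35. The erythroid markers summed to 224 on L3 and 277 on L4, the leukocyte markers to 398 and 274 and the neutrophil precursor markers to 612 and 486, and their part in the gap was not tested. The 43 members called lower were higher on both Lin- arrays than on both 1 month arrays, by at least 1.02. They were called on these same arrays, and some passed the filter only through the Lin- arrays. This gap is therefore no separate support for the calls.

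At 5 months the array G1 stood above G3 for genes of the late part of the cycle. Cdc20 was higher on G1 by 2.19, Mki67 by 2.12, Birc5 by 2.03, Ccna2 by 1.98, Plk1 by 1.87, Ccnb2 by 1.77, Ccnb1 by 1.64 and Foxm1 by 1.44, with Plk1 and Foxm1 not above background on G3. Aurka (0.65) and Mad2l1 (0.38) differed less. The 9 licensing genes differed by no more than 0.21 in either direction, Mcm6 by 0.20. The 7 neutrophil precursor markers were all above background on G1, summing to 27.1, while 3 of 7 were on G3 (14.6), 4 of 7 on H2 (11.3) and 3 of 7 on H4 (23.3). The part of these markers in the gap between G1 and G3 was not tested. Leaving out G1 leaves G3 alone at 5 months, so calls from that fit cannot show the part of G1 in the comparison with primary hepatocytes.

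In primary hepatocytes H4 stood above H2 for several of the same genes. Ccnb1 was higher on H4 by 2.10 and Ccna2 by 1.94, each above background on 1 of the primary arrays. Mki67 was higher on H4 by 1.52, Ccnb2 by 1.33 and Birc5 by 1.32. Mcm6, nearly level between G1 and G3, was higher on H4 by 1.21, while the licensing genes had a median gap of -0.25. Ccne1 had the widest gap of any member on this slide, at -1.55 on H2 and 2.26 on H4, with -0.70 and -0.33 at 5 months. Between the 1 month arrays the signed gap had a median of 0.02 over the 33 members above background on both. Cdkn1a was 4.25 lower on B2, Rrm2 1.48 lower and E2f8 1.07 lower, while Ccnd1 was 1.79 and Bub1 1.55 higher on B2. The Kupffer cell markers summed to 9.66 on B1 and 41.4 on B2, and their part in these gaps was not tested.

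**Figure D5:**
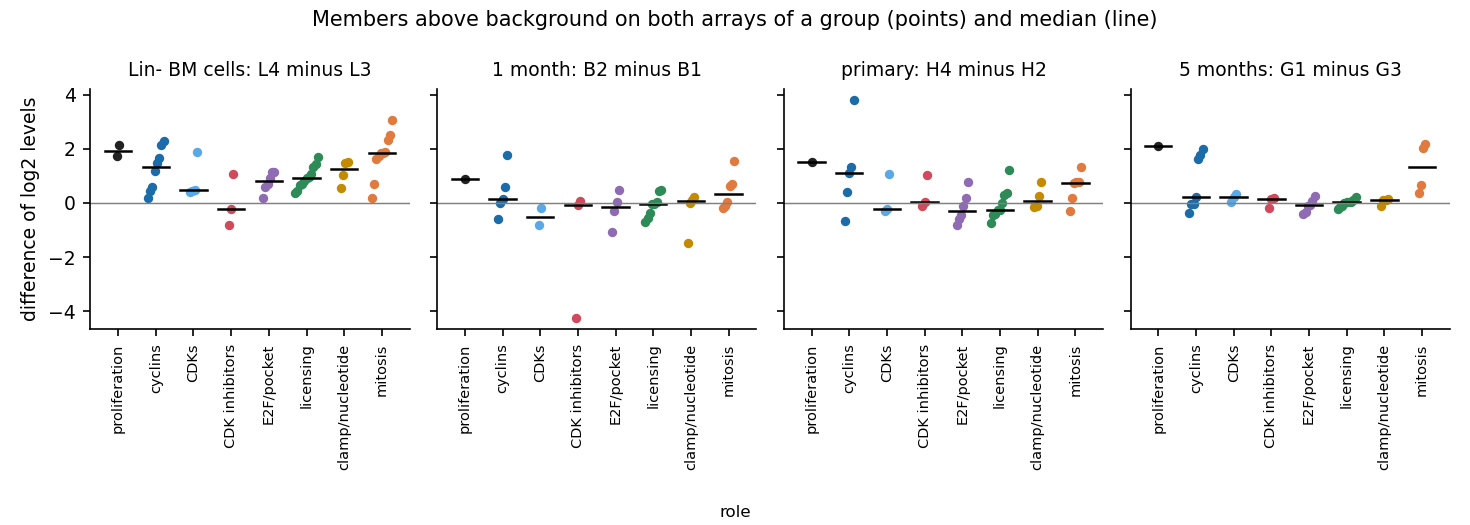
Difference of log2 levels between the 2 arrays of a group (y axis) for the members above background on both, by role (x axis), with the median as a line. On Lin- arrays 46 of 48 members lie above 0, and at 5 months Mki67, the cyclins A and B and the mitosis genes do, while licensing genes stay within 0.21 of 0.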

How the data were processed

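RNA of 8 samples in 4 groups was labelled with Cy3 and hybridised to 1-colour Agilent mouse arrays of 2 designs. The authors deposited the scanner output of Feature Extraction 11.5.1.1, in which gProcessedSignal is the background-subtracted intensity of a spot, and a processed matrix of log2 values, which equals the log2 deposited signal less one number per array (to 0.02 for 99.8% or more of the probes). Control spots and outlier spots were left out, spots of a probe were averaged, and log2 intensity minus the 75th percentile of the array was tested with limma 3.58.1 in R 4.3.3, with Python 3.11.15 for the rest. Probes entered the test where some group had both its arrays well above background, and a gene was represented by its brightest such probe. A call needed a Benjamini-Hochberg adjusted p under 0.05 over all genes and a log2 change beyond 0.6. The single-gene exact permutation test of 2 against 2 arrays cannot go below p = 0.33 and was not used. Across slides only probes of identical sequence entered, in 1 fit of the 4 groups with the 75th percentile taken over those probes. The fit was tested on simulated data.

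The 48 members and the further lists were chosen with earlier results of these data known. Values of every array are given for the 8 members of largest change within the first slide, for members called at 5 months, for those not called at 1 month, for D-type cyclins and for CDK inhibitors, and up to 4 genes a further list are named by size of change. Mcm6, Rbl1, Cdk2, Top2a, Pcna, Ccne1 and Plk1 are shown in more detail than this rule gives in some comparisons, chosen after their values were seen, and so are genes of the further lists that were called. Alternatives were another background correction, normalization, filter, probe rule, source of values and test, and each array left out. The number of arrays limits the precision, and a count of molecules is not known from intensities.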

Additional observations from a re-analysis of the deposited data

How the results depend on the processing

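Of the values of single members under the alternatives, 483 kept direction and side of the threshold, 118 lost the call, 20 gained it and 5 changed sign. The 5, all between 1 month hepatocytes and Lin- BM cells within the slide, were Bub1 with the mean of its probes (-2.74), Mcm10 without L3 (-0.28), Cdkn1a without B2 (1.00), Cdkn2c without L4 (0.44) and Cdk2 with the normexp background correction (0.52). Leaving out the arrays of the slide in turn gave -0.28 to 1.17 for Mcm10, -3.25 to 1.00 for Cdkn1a and -0.62 to 0.44 for Cdkn2c. The cause was not tested.

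Within the slide, 28 members were called lower at 1 month with only probes above background on all arrays (33 members were left to test). By the methods' t-test after Benjamini-Hochberg adjustment 8 were called lower. Over all genes these 2 rules called 4831 of 21135 and 1741 of 28519 lower. Leaving out 1 array gave 41 to 42 calls, of which 40 were lower and 1, Bub1, higher without B1. For 5 months against primary hepatocytes within the slide, 1 member was called with normexp, 5 by the methods' t-test unadjusted, and 0 to 6 without 1 array (4 without H2 and 6 without H4). On shared probes the methods' t-test after adjustment gave 12 members at 1 month, 16 at 5 months and 15 in primary hepatocytes against Lin- BM cells. Over all genes it called, in that order, 1295 higher and 972 lower of 9226, 1664 and 1665 of 9229, and 1267 and 1239 of 9226. For 5 months against primary hepatocytes on shared probes the t-test gave 0 members after adjustment and 4 unadjusted. Unadjusted, it called 350 higher and 304 lower of all 9228 genes. The fit of the arrays of these groups alone called 0 members. For 1 month against primary hepatocytes, quantile normalization gave 2 calls and the arrays of these groups alone 1. Over all 9231 genes these gave 680 higher and 598 lower, and 525 and 160. The adjusted t-test, the authors' processed values and the percentile over all probes gave 0 member calls each. For 5 months against 1 month the adjusted t-test gave 0 and leaving out 1 array 0 to 3.

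With normexp the median change over all genes at 1 month moved from 0.065 to 0.366 within the slide, and the genes called higher and lower from 8227 and 7555 to 10216 and 6027. On shared probes they moved from 2844 and 2940 to 3955 and 2106. Within the slide 38 members were then called lower at 1 month, with Ccnd1 (-1.47) among them and E2f4 (-0.63), Kif11 (-0.83) and Cdk2 among those no longer called. No paired analysis was possible because the groups compared share fewer than 2 array numbers, and slide could not be fitted as a block across slides. Signal near background limits the size of the falls at 1 month. The 11 members above background on neither array there have only a lower limit or, for Cdk2, none.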
